A study of Mus musculus with 4 samples.

Results

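The immediate early genes considered here were Fos, Fosb, Jun, Junb, Jund, Egr1, Ier2, Dusp1, Zfp36 and Gadd45g. They were taken by name from the platform annotation, which gave 12 probe sets for these 10 genes, among 45101 probe sets and 18193 singly named genes on the array. The arrays measured total RNA of Paneth cells, the granular antimicrobial cells of the small intestinal crypt base, laser-captured from mice whose background mixed C57BL/6 and 129ola. The labels name 2 samples from Atg16-hypomorph mice, which carry a reduced-function allele of the autophagy gene Atg16l1, and 2 from wildtype mice. For either group the labels give no age, sex, treatment or time of sampling. They do not say which allele makes the hypomorph, and do not say whether a group's arrays represent different animals. The p-values therefore reflect the spread of these samples alone, which may be technical.

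Immediate early genes are transcribed within minutes of a stimulus from factors already present in the cell, without new protein synthesis. Kinase cascades reach their promoters through the serum response factor and its partners and through CREB, and the messengers are short-lived, so that their level follows recent signalling. Fos and Jun family proteins pair through leucine zippers to form the AP-1 transcription factor, Egr1 is a zinc finger transcription factor, and Dusp1 and Zfp36 are feedback regulators. The same genes respond to tissue handling and to the delay before fixation or freezing.

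On these arrays Fos was lower and Gadd45g higher in the hypomorph samples, and no other member passed the test. Fos had a mean intensity of 660 ± 11.8 (SD, n = 2 arrays) in hypomorph against 943 ± 37.9 in wildtype, and Gadd45g had 1348 ± 248 against 823 ± 30.0. Of the 10 genes, 6 had a brightest probe set that passed the filter on dim probe sets. Of these 6, 1 rose and 1 fell at an adjusted p under 0.05 (limma, Benjamini-Hochberg over all probe sets tested), where 2.53% of all 11577 genes tested rose, 1.70% fell and 4.23% did either. Counted by probe set, 2 of the 7 tested for these genes were called, 1 in each direction, against 3.71% of all probe sets tested, 2.04% higher and 1.67% lower. At an unadjusted limma p under 0.05, 3 of the 6 genes passed (Fos, Egr1 and Gadd45g), where 21.7% of all genes tested would. Whether the members exceed that share was not tested. The calls of Fos and Gadd45g both depended on single arrays, as given beside each gene.

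The 250 bases before the RefSeq start of the genes that passed the test, and of Jun as an AP-1 partner of Fos that did not, are shown to let the response elements in them be compared (build GRCm38.p6, 5′ to 3′ on the gene's own strand). Capitals mark matches, on either strand, to TGACGTCA (the full CREB element), TGACG (its shorter core, which the full element contains), TGANTCA (the AP-1 element), the CArG box of the serum response factor, GCGNGGGCG (the Egr element), CCAAT and TATAA. Fos lies at chr12:85473640-85473889 on the plus strand, Gadd45g at chr13:51846425-51846674 on the plus strand and Jun at chr4:95052223-95052472 on the minus strand.
Fos: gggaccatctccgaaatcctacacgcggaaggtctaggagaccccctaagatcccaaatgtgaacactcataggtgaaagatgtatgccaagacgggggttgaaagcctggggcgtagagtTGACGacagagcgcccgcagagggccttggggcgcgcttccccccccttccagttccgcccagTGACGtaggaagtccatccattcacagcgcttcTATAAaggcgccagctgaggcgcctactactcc
Gadd45g: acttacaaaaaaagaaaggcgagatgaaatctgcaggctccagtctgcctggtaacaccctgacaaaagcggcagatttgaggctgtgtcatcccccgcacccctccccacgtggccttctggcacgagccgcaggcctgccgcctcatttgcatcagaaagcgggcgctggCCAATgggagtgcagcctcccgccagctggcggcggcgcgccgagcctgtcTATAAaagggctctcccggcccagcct
Jun: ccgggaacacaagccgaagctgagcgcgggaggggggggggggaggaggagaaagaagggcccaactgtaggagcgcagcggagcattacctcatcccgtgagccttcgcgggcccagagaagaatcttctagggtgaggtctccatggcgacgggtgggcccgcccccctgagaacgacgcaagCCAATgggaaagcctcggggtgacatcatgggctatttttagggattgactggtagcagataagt

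In the Fos sequence the capitals are TGACG at 129 to 125 and at 66 to 62 bases before the start, and TATAA at 33 to 29. Gadd45g held CCAAT at 78 to 74 bases and TATAA at 27 to 23 bases before its start, and Jun held CCAAT at 65 to 61. Only exact matches to the listed patterns were sought. The letters tgacatca in the Jun sequence resemble TGACGTCA but match none of the patterns, and so stay in lower case. Neither TGACG nor a CArG box was found in the windows of Gadd45g and Jun. The RefSeq promoter table matched 8 of the 10 genes, all but Egr1 and Ier2. TGACG was present in 4 of these 8 (Fos, Fosb, Junb and Dusp1) and in 17.8% of the 32851 promoters of the table. The full TGACGTCA was present in 1 of 8, Dusp1, and in 1.55% of all. Of these 8 windows, that of Zfp36 alone held a CArG box (1.47% of all promoters). The Egr element was in Fosb and Zfp36 (4.70% of all), while TGANTCA was in none of the 8 and in 6.75% of all. CCAAT was in 3 of 8 against 33.9% of all, and TATAA in 2 of 8 against 22.8%. These matches describe the letters in the window only. Sites further from the start were not sought. The lack of a CArG box in the windows of Fos and the other genes therefore does not show that they have none.

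Values are the deposited linear intensities, and each difference subtracts the wildtype mean from the hypomorph mean of log2(intensity + 32), a scale that compresses changes of dim genes. Probe sets differ in brightness for reasons unrelated to transcript number, so levels are compared between groups and not between genes. Array medians lay between 47.4 and 49.6. Atg16l1 was at 966 and 995 in the hypomorph samples and at 1335 and 1183 in the wildtype samples (log2 difference -0.35, limma adjusted p = 0.102), a difference in the labelled direction that did not pass the test. The Paneth cell genes Lyz1, Mmp7, Ang4 and Itln1 were bright on all 4 arrays, with Lyz1 between 14561 and 16021. Other Paneth markers were dimmer, such as Sox9 (57.5 to 83.5) and Habp2 (136 to 171). Markers of other cells were also bright, among them Olfm4 of stem cells (8442 to 8984), Muc2 of goblet cells (6241 to 7327) and Col3a1 of fibroblasts (5872 to 7295). These intensities therefore do not show how pure the capture was, or which cells gave the immediate early signal. Of 11 Paneth markers tested 1 was called, Reg3g, which rose (limma adjusted p = 0.0453) and was called without hypomorph replicate 1 but not without the other arrays (adjusted p from 0.0576 to 0.207). Of all genes tested 2.53% rose and 1.70% fell. Xist, whose level depends on sex, read 4462 ± 67.9 in hypomorph and 21.8 ± 5.36 in wildtype. Sex thus ran with genotype over these 4 arrays, and no difference given here can be told apart from one of sex.

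Fos encodes the founding AP-1 subunit that must pair with a Jun protein to bind DNA. It read 652 and 669 in hypomorph and 970 and 916 in wildtype, so that both hypomorph values lay below both wildtype values. The ratio of group means was 0.701, and the log2 difference was -0.49 (SE 0.11, 95% confidence interval -0.74 to -0.25; limma adjusted p = 0.0395). The difference stayed between -0.45 and -0.53 without each array in turn. The call was kept without hypomorph replicate 2 (adjusted p = 0.0449) and lost without hypomorph replicate 1 (adjusted p = 0.104), wildtype replicate 1 (adjusted p = 0.194) and wildtype replicate 2 (adjusted p = 0.109). It was also lost without the brightness filter and without an intensity trend in limma's prior (adjusted p = 0.1005 and 0.0976).

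Fosb, a close relative of Fos, was near the floor of the array. Its values were 8.58 and 9.17 in hypomorph and 6.89 and 2.34 in wildtype, and it was not tested. Such readings are too dim to give a direction, and the difference ran from 0.05 to 0.94 between an added constant of 4 times 32 and of 1.

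**Figure D1:**
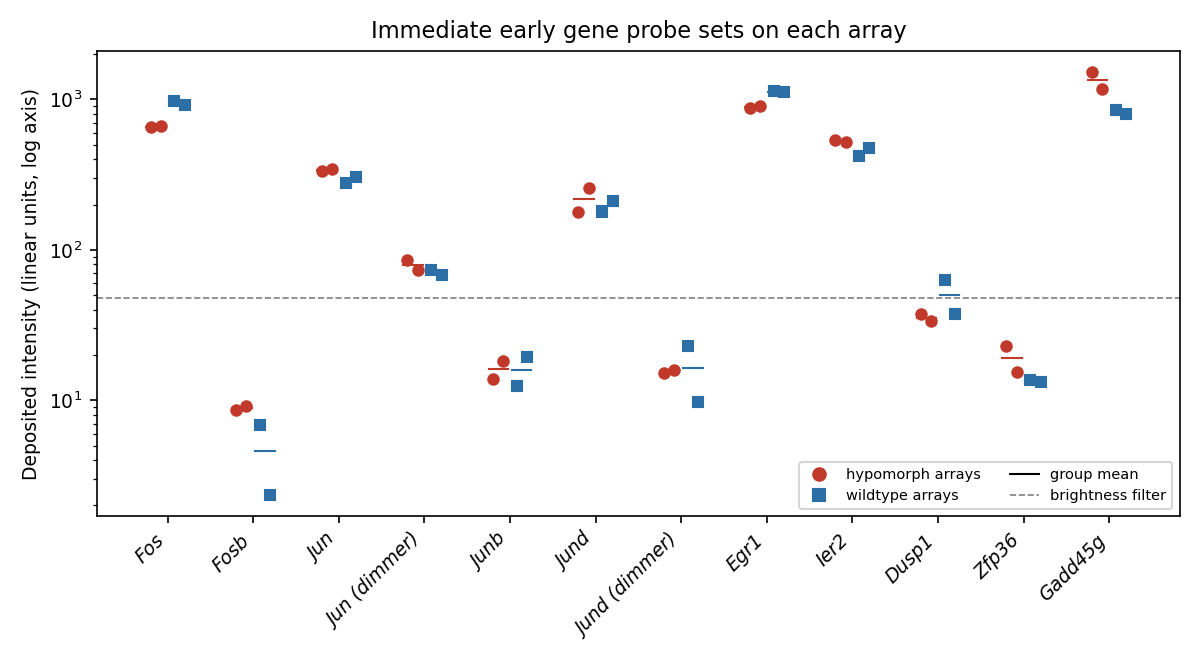
Deposited intensity (log axis) of the 12 probe sets of the 10 immediate early genes, with hypomorph arrays as red circles, wildtype arrays as blue squares and short lines for the means of 2 arrays; "dimmer" marks a gene's second probe set and the dashed line is the brightness filter at 47.7. Among the tested probe sets, Fos and Egr1 sit lower on both hypomorph arrays, and Gadd45g, Ier2 and the brighter Jun probe set sit higher. Fosb, Junb, Dusp1 and Zfp36 lie near or under the filter line.

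The Jun family gave no call. Jun, the partner that forms the most studied AP-1 dimer with Fos, read 335 and 342 in hypomorph and 277 and 303 in wildtype. The groups did not overlap, but the log2 difference of 0.21 (95% confidence interval -0.11 to 0.52) did not pass the test (limma adjusted p = 0.442). The second probe set of Jun, dimmer at 85.0 and 73.5 against 73.9 and 68.4, gave 0.11 with overlapping groups. Jund, the family member usually expressed at rest, read 177 and 257 in hypomorph and 180 and 211 in wildtype. Its hypomorph arrays enclosed the wildtype ones, and the difference of 0.12 (95% confidence interval -0.30 to 0.53) turned to -0.11 without hypomorph replicate 2. Junb, which often restrains Jun, was dim and overlapping at 13.8 and 18.3 against 12.4 and 19.3, and a second Jund probe set was also dim at 15.2 and 15.9 against 22.9 and 9.68. For Jun and Jund the intervals reach past 0.5, so a rise as large in size as the fall of Fos lies within them.

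Egr1, which binds GC-rich elements and is induced with Fos by the same kinases, read 873 and 903 in hypomorph and 1132 and 1118 in wildtype. Both hypomorph arrays were below both wildtype arrays, and the spread within each group was small (888 ± 21.3 against 1125 ± 9.96). The log2 difference was -0.33 (SE 0.10, 95% confidence interval -0.56 to -0.11) and did not pass the threshold after adjustment over all probe sets (limma adjusted p = 0.105, unadjusted p = 0.00841). At an unadjusted p under 0.05, a looser cut than the p of Egr1, 21.7% of all genes tested would pass. The sign and size held without each array in turn, from -0.31 to -0.35, with adjusted p between 0.106 and 0.344.

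Ier2, a small nuclear regulator induced by growth factors, read 535 and 524 in hypomorph and 418 and 474 in wildtype. The groups did not overlap, but the log2 difference of 0.23 (95% confidence interval -0.05 to 0.52) did not pass the test (limma adjusted p = 0.339). Counting all 6 tested genes, 3 had both hypomorph arrays above both wildtype arrays (Jun, Ier2 and Gadd45g) and 2 had both below (Fos and Egr1). Over all genes tested 23.4% lay higher and 30.0% lower in this way, 53.4% together, so a lack of overlap between pairs of arrays is common here.

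The feedback regulators Dusp1 and Zfp36 were left out by the brightness filter. Dusp1, a phosphatase that switches off MAP kinases, read 37.3 and 33.6 in hypomorph and 62.6 and 37.5 in wildtype, with a mean log2 value of 6.21 just under the filter at 6.32. The untested difference of -0.27 came from wildtype replicate 1, since the second wildtype array lay within 0.2 units of hypomorph replicate 1. Zfp36, tristetraprolin, which binds AU-rich elements and speeds the decay of messengers such as Fos, read 22.9 and 15.4 against 13.7 and 13.3. With the filter removed, none of the 4 dim genes was called in limma (adjusted p = 0.534 for Fosb, 0.988 for Junb, 0.602 for Dusp1 and 0.625 for Zfp36).

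Gadd45g, a stress and growth arrest regulator that binds the kinase MEKK4, had the largest difference of the tested members. It read 1523 and 1172 in hypomorph and 844 and 802 in wildtype, and the lower hypomorph array was still above both wildtype arrays. The ratio of means was 1.64 and the log2 difference 0.68 (SE 0.13, 95% confidence interval 0.39 to 0.97; limma adjusted p = 0.0214). The hypomorph arrays differed from each other more than the wildtype arrays did (SD 248 against 30.0). Without hypomorph replicate 1, the brighter array, the difference was 0.49 and the call was lost (adjusted p = 0.0818), while without hypomorph replicate 2 it was 0.86 (adjusted p = 0.00313). It was called without either wildtype array (adjusted p = 0.0229 and 0.0366), and lost without the brightness filter and without the intensity trend (adjusted p = 0.0997 and 0.105). Of all genes tested, 3.13% differed by more than Gadd45g in size and 7.19% by more than Fos.

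**Figure D2:**
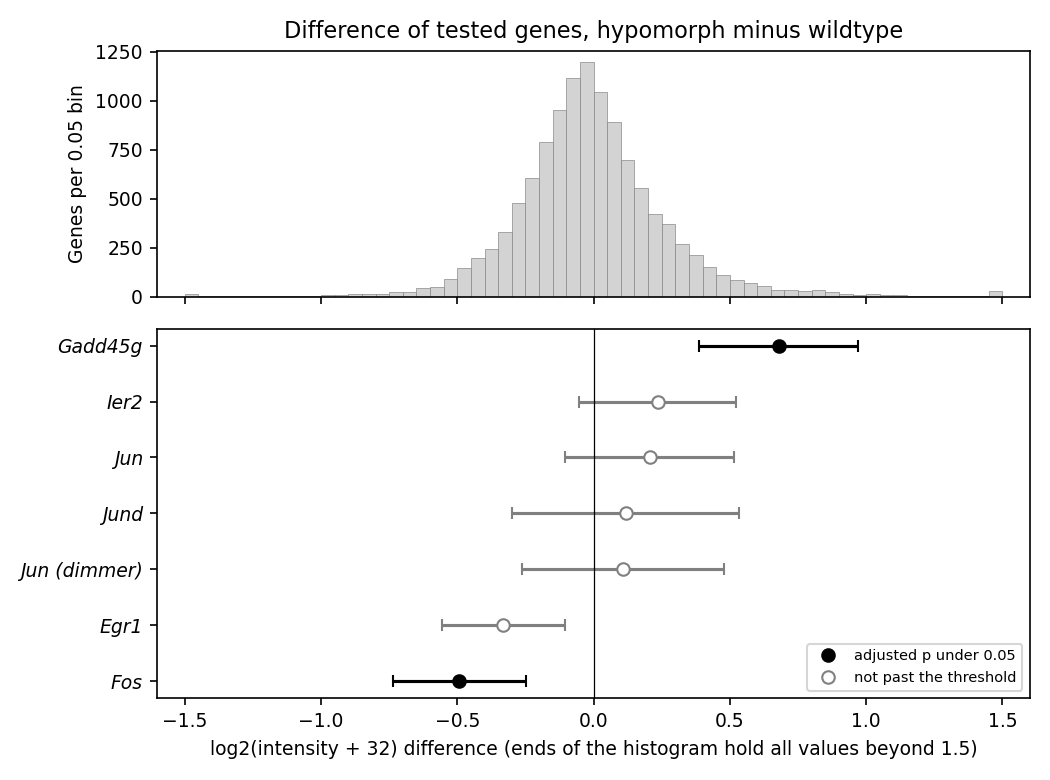
Upper panel, number of tested genes by log2 difference; lower panel, the 7 tested probe sets of the 6 genes with 95% confidence intervals from limma, filled where the adjusted p is under 0.05. Gadd45g at 0.68 and Fos at -0.49 are filled, and the intervals of Jun, Jund and Ier2 cross 0.

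The genes whose values over the 4 arrays were most like those of Gadd45g, by Euclidean distance between centred log2 values, were Zfp882, Crhr2, Kcnj6, Mrm1 and Tmem125, at distances from 0.06 to 0.12 over 4 arrays. Each had its highest value on hypomorph replicate 1, as Gadd45g did, which follows from how they were picked. Mrm1, an RNA methyltransferase of mitochondria, read 874 and 665 against 473 and 410 and was called (log2 difference 0.75, limma adjusted p = 0.0269), and the other 4 were not called (adjusted p from 0.0566 to 0.0995). With 4 arrays such likeness is a description only.

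Paralogues of the members showed no call. They were picked after their values were seen. Of 17 on the array 12 were tested, and 0 rose or fell in limma. Egr2, Dusp4 and Zfp36l1 had an unadjusted limma p under 0.05 (0.0397, 0.0112 and 0.00362). These 3 of 12 are near the share of 21.7% of all genes tested. Gadd45a and Gadd45b, the other stress sensors of the Gadd45 family, differed by -0.19 and 0.15 (limma adjusted p = 0.53 and 0.493). Gadd45b read 881 and 962 in hypomorph and 861 and 799 in wildtype. Egr2, an Egr1 relative, read 88.0 and 87.7 against 116 and 134 (log2 difference -0.39, adjusted p = 0.218). Zfp36l1, an AU-rich element binding relative of Zfp36, read 3629 and 3860 against 4461 and 4469 (log2 difference -0.25, adjusted p = 0.0688). Dusp4, a nuclear MAP kinase phosphatase, read 93.0 and 70.1 against 44.8 and 46.1 (log2 difference 0.54, adjusted p = 0.121). Zfp36l1 was called lower without hypomorph replicate 2 (adjusted p = 0.0322). Whether a member differed more than its relatives was not tested.

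Among other AP-1 and related bZIP factors, 6 of 11 were tested and 0 rose or fell, with a median log2 difference of 0.08 against -0.02 over all genes tested. At an unadjusted p under 0.05 the count was also 0, where 21.7% of all genes tested would pass. Atf2, a partner of Jun, read 3169 and 3181 in hypomorph against 3487 and 3405 in wildtype (log2 difference -0.12), and Fosl2 differed by 0.21, Jdp2, an AP-1 repressor, by 0.17 and Mafk by 0.07, all short of the threshold (limma adjusted p from 0.372 to 0.852).

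Of 21 other immediate early transcription factors 18 were tested, 0 rose and 1 fell, with a median of -0.03. Of all genes tested 2.53% rose and 1.70% fell. At an unadjusted limma p under 0.05 the count was 6 of 18, against 21.7% of all genes tested. The gene called lower after adjustment was Per1, a clock component that is also an immediate early gene of CREB and of glucocorticoids. It read 81.6 and 101 in hypomorph against 189 and 215 in wildtype (log2 difference -0.93, limma adjusted p = 0.0160), with no overlap, and the call was lost without wildtype replicate 2 (adjusted p = 0.0967). Nr4a2, an orphan nuclear receptor, read 271 and 283 against 369 and 411 on its brightest probe set (log2 difference -0.45, adjusted p = 0.113). A dimmer probe set of Nr4a2 passed the test at 119 and 158 against 286 and 243 (-0.81, adjusted p = 0.0356), and 2 others that were tested, at 0.19 and -0.08, did not. Klf4, a differentiation factor of the gut epithelium, differed by 0.23 and Nfil3, a bZIP repressor, by 0.41 (adjusted p = 0.123 and 0.176).

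Of 42 other immediate early regulators and secreted factors, 41 were on the array and 33 tested, of which 1 rose and 2 fell with a median of -0.07. Of all genes tested 2.53% rose and 1.70% fell. At an unadjusted limma p under 0.05 the count was 11 of 33, against 21.7% of all genes tested. Socs3, the feedback inhibitor of STAT3, read 2967 and 2625 against 765 and 848 (log2 difference 1.75, limma adjusted p = 1.07e-05). Sgk1, a kinase induced by serum and glucocorticoids, read 1608 and 1549 against 3414 and 3079 (-1.02, adjusted p = 0.000140). Errfi1, an inhibitor of the EGF receptor, read 957 and 1039 against 1473 and 1534 (-0.58, adjusted p = 0.0123). Both hypomorph arrays of Socs3 lay above and those of Sgk1 and Errfi1 below the wildtype arrays. Socs3 and Sgk1 were called without each array in turn, and Errfi1 was lost without wildtype replicate 2 (adjusted p = 0.0539). Ereg, a ligand of that receptor, read 170 and 171 against 322 and 247 and did not pass (-0.63, adjusted p = 0.068).

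**Figure D3:**
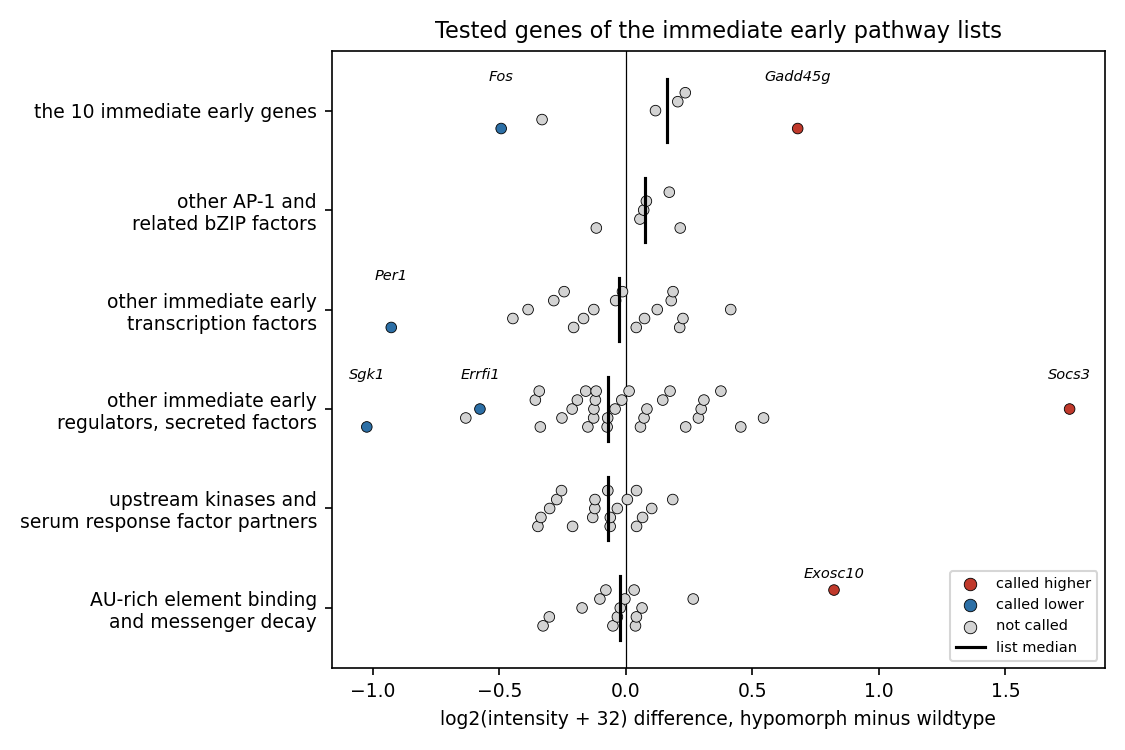
Log2 difference, hypomorph minus wildtype, of every tested gene (brightest probe set) of the 10 immediate early genes and of 5 lists of related genes, with vertical bars at list medians and names at called genes. Calls lie on both sides of 0, from Sgk1 at -1.02 to Socs3 at 1.75, and medians lie between -0.07 and 0.16.

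Upstream of these genes, 19 of 31 listed kinases and serum response factor partners were tested and 0 rose or fell, with a median of -0.07. At an unadjusted p under 0.05 the count was 4 of 19, near the share of 21.7% of all genes tested. The 4 were Elk4 (-0.21), an Ets factor that binds DNA with the serum response factor, the coactivator Mrtfb (-0.27), the JNK gene Mapk8 (-0.35) and Map2k6 (-0.30), a kinase of the p38 pathway (limma adjusted p from 0.139 to 0.242). Mrtfb read 1572 and 1888 in hypomorph against 2117 and 2061 in wildtype and was called without hypomorph replicate 2 (adjusted p = 0.0362). Other probe sets of Elk4 and Mapk8 gave differences of opposite sign, of 0.40 and 0.25 at the widest among those tested. Of 17 genes of AU-rich element binding and messenger decay 15 were tested, 1 rose and 0 fell, with a median of -0.02. Of all genes tested 2.53% rose and 1.70% fell. At an unadjusted limma p under 0.05 the count in this list was 4 of 15, against 21.7% of all genes tested. Exosc10, a catalytic subunit of the nuclear exosome, read 263 and 186 against 117 and 106 (0.82, adjusted p = 0.0411). Its call was lost without hypomorph replicate 1 and without each wildtype array (adjusted p = 0.140, 0.0860 and 0.143), and its other tested probe sets gave 0.18 and 0.07. The RNA-binding protein gene Tial1 differed by -0.33 (adjusted p = 0.0727) and was called lower without hypomorph replicate 2 (adjusted p = 0.0199). Pan2, a deadenylase subunit, differed by -0.30 and Khsrp, a decay factor that binds AU-rich elements, by 0.27 (adjusted p = 0.127 and 0.150). A second tested probe set of Khsrp gave -0.05 with overlapping groups (adjusted p = 0.901).

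Some markers of other cells and some heat shock genes differed between the groups, while other lists held no call. Whether handling differed between the groups is not stated in the labels and was not tested. Of 10 heat shock genes tested 5 fell and 0 rose, and their summed intensity was 40591 to 42008 in hypomorph and 50521 to 52046 in wildtype. Hspa1b, an inducible chaperone, read 1460 and 1425 against 4233 and 4229. Probes of Hspa1b and its near-identical copy Hspa1a can cross-hybridise, so which gene they measured is uncertain. Of 10 fat cell markers tested 9 rose, with sums of 33183 to 33316 against 10442 to 10592, and of 10 enterocyte markers 6 rose, with sums of 27260 to 28205 against 20038 to 20273. Lipe and Retn, fat cell markers too dim to test, were at 8.61 to 46.2 on all arrays. Of 8 enteroendocrine markers 4 fell, of 8 stem cell markers 2 fell, and of 8 fibroblast markers 4 rose. For each of these lists the share to compare is that of all genes tested, of which 2.53% rose and 1.70% fell. Of 6 blood cell markers 2 rose, the granzymes Gzma and Gzmb, while the list median was -0.13. The other tested blood markers had negative differences and were not called (Ptprc -0.26, Cd79a -0.49, Mzb1 -0.23 and Lyz2 -0.02). Among 4 nerve markers 1 rose, the neuropeptide gene Vip (3412 and 4113 against 2271 and 2119). Of 8 smooth muscle and pericyte markers 1 fell, Rgs5 (155 and 118 against 1140 and 1330, log2 difference -2.91). By sign 6 of these 8 were lower in hypomorph and 2 higher. Of 7 goblet and 4 endothelial markers 0 rose or fell in limma. At an unadjusted p under 0.05 these 2 lists had 4 and 1, where 21.7% of all genes tested would pass. Without each array in turn the heat shock falls numbered 4 to 6, the fat cell rises 9 and the enterocyte rises 6, while the enteroendocrine falls ranged from 2 to 4, the stem cell falls from 0 to 4 and the fibroblast rises from 1 to 3. Their part in the differences of Fos and Gadd45g was not tested, and fewer cells of a type and less RNA per cell cannot be told apart in such samples. The 3′ to 5′ intensity ratio of the actin control probe sets, which rises as RNA is shortened, was 17.7 and 19.3 in hypomorph and 25.7 and 22.3 in wildtype. That of Gapdh overlapped, at 44.2 and 50.04 against 47.6 and 48.8. The part of RNA length in these results was not tested either.

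**Figure D4:**
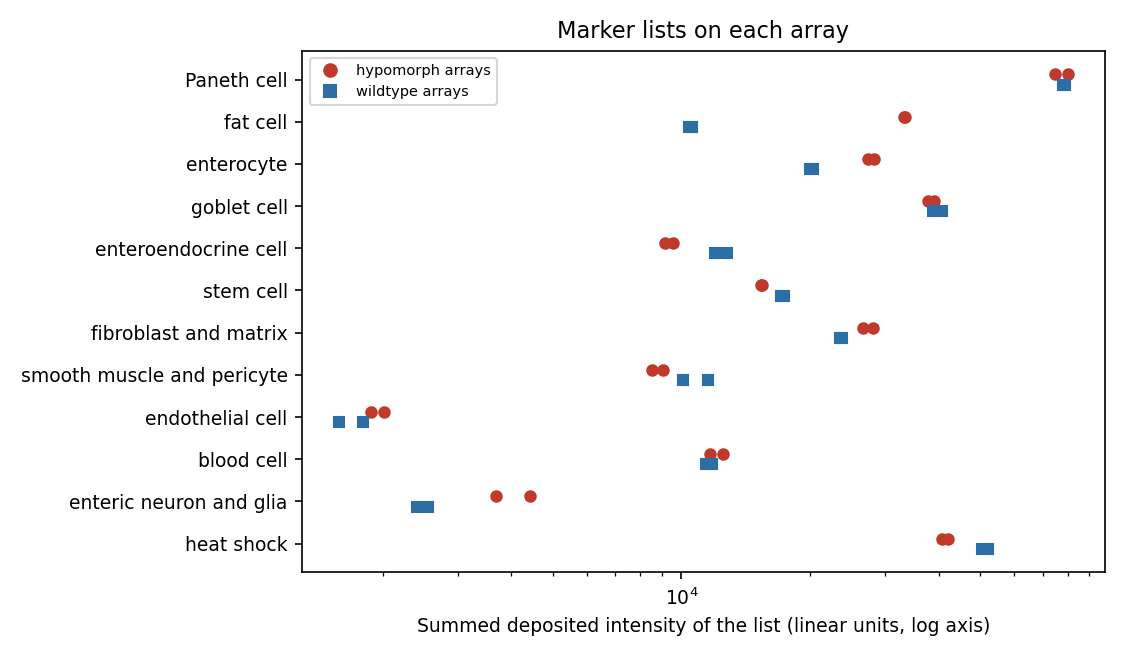
Summed deposited intensity (log axis) of each marker list on each array, with hypomorph arrays as red circles and wildtype arrays as blue squares. The fat cell, enterocyte, fibroblast, endothelial and nerve sums are higher on both hypomorph arrays. The heat shock, enteroendocrine, stem cell, and smooth muscle and pericyte sums are lower on both. The Paneth, goblet and blood cell sums overlap. Vip makes up most of the nerve sum.

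**Figure D5:**
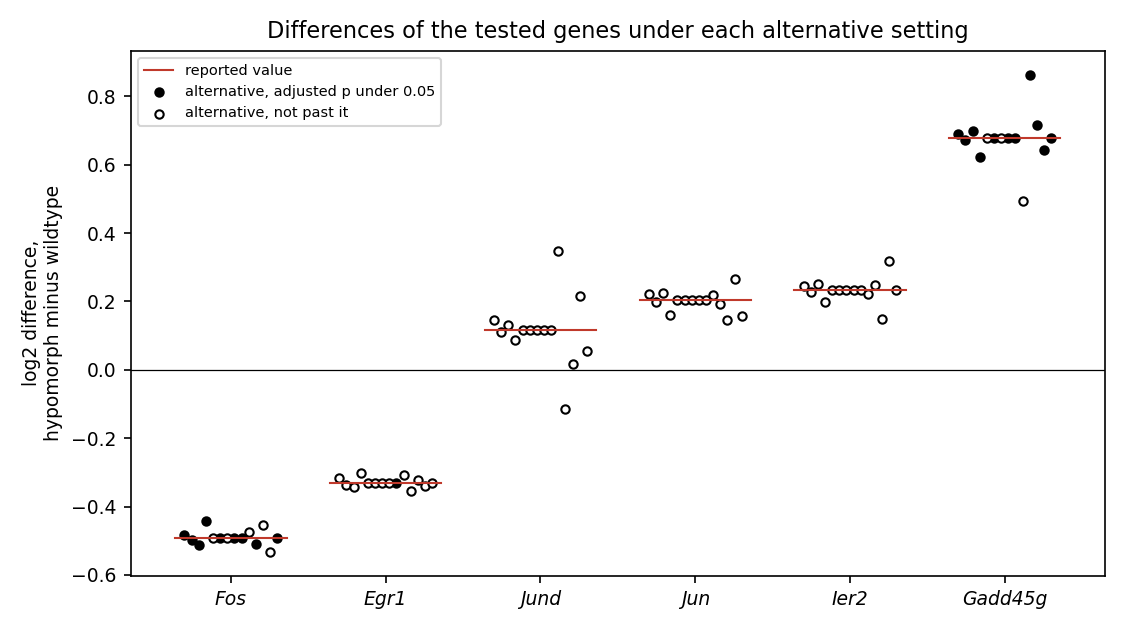
Log2 difference of the 6 tested immediate early genes as reported (red line) and under 14 alternative settings (circles, filled where the adjusted p is under 0.05). Fos was called under 9 of the 14 and Gadd45g under 11, Egr1 under 1, and the sign of each gene except Jund held under all 14.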

How the data were processed

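Total RNA of 4 laser-captured samples was extracted with PicoPure and amplified and biotin-labelled with RiboAmp Plus, per the labels' protocols. The authors deposited 1 linear intensity per probe set and array. The sources used here do not name the background correction, summarisation, scaling or detection method. Trimmed means differed by a factor of at most 1.02, so no further scaling was applied.

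Of 45101 probe sets 64 controls were left out, and 34945 carried 1 gene symbol, 932 several and 9160 none, from a platform annotation that can be old. Older symbols of listed genes were updated through a RefSeq table. A gene was read from its brightest probe set. Log2(intensity + 32) was fitted with the group as the only term, after leaving out probe sets below the median mean (6.32), which kept 22519, in limma 3.58.1 under R 4.3.3 (eBayes with an intensity trend, 2 residual and 7.81 prior degrees of freedom). Tests are two-sided, with Benjamini-Hochberg adjustment over all probe sets tested and a threshold of 0.05. Precision is limited by the number of arrays. The procedure was tested on simulated data.

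All 10 members are named, with up to 4 genes of each related list (called genes by size, otherwise the smallest p) and the 5 nearest profiles; paralogues, markers, Atg16l1, Xist and second probe sets were named besides. Members and lists were chosen with earlier results of these data known. Other settings tried were quantile normalisation, centring on medians, an added constant of 1 or of 4 times 32, no filter or one at the 25% point, no trend, a robust prior, replicate number as block, averaged probe sets per gene, and 3 arrays only, leaving out each in turn (a lone array is taken to vary as the other group does). Promoters are RefSeq's (GRCm38.p6).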

Additional observations from a re-analysis of the deposited data

How the results depend on the processing

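Under 14 alternatives the 6 tested genes kept their sign, except Jund, which ranged from -0.11 (without hypomorph replicate 2) to 0.35 (without hypomorph replicate 1). The count of 2 called members (Fos and Gadd45g) was 0 without the brightness filter and 0 without the intensity trend, and ranged from 0 to 2 when each array was left out. Called probe sets numbered 836 (459 higher, 377 lower). There were 303 (183 and 120) without the filter, 323 (192 and 131) without the trend, and between 500 and 1648 (317 to 706 higher, 178 to 942 lower) when each array was left out. With the replicate number as a block, which leaves 1 residual degree of freedom, there were 3206 (1489 and 1717), and Egr1 was then called too (adjusted p = 0.0302 in limma), as were, of the genes named from related lists, Ereg (0.00144), Tial1 (0.00323), Nr4a2 (0.0226), Mrtfb (0.0314), Klf4 (0.0328) and Pan2 (0.0490). No label says that a number marks a shared source. Same-numbered arrays deviated together (r = 0.26 over 22519 probe sets), a value that 2 pairs of 2 share by construction. The differences of Fosb and Zfp36, both untested, moved to 0.94 and 0.45 with a constant of 1 and to 0.05 and 0.06 with 4 times 32. Low signal limits what can be said of Fosb, Junb, Dusp1 and Zfp36. The causes of the lost calls were not tested.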
